A study of Mus musculus with 9 samples.

Results

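The genes described are those of the nuclear Nduf family, which with few exceptions encode the subunits of mitochondrial respiratory complex I (NADH:ubiquinone oxidoreductase) that are carried on chromosomes of the nucleus. They were taken by symbol, as every row whose name is Nduf followed by a, b, c, s, v or ab and a number, which leaves out the pseudogene rows and the Ndufaf assembly factors, and 39 of the 56691 genes in the deposited tables matched. Of these, 37 encode complex I subunits, Ndufa4 encodes a protein now placed in complex IV, and Ndufa4l2 is its paralogue. RNA-seq was done on 9 libraries of mouse BVSC cells, a pluripotent stem cell line that carries a Blimp1-mVenus (BV) and a Stella-CFP reporter and that had been differentiated as embryoid bodies. Cells carried the doxycycline-inducible p20 vector with Nrf1 cDNA (NRF1 OE) or without an insert (Ctrl), all received 1.5 ug/ml doxycycline from day 2 to 5, and BV+ cells, named PGC-like cells (PGCLCs) by the study, and BV- cells, named somatic, were sorted by the reporter. There were 2 libraries of BV+ NRF1 OE, 2 of BV+ Ctrl, 3 of BV- NRF1 OE and 2 of BV- Ctrl. The doxycycline was shared by every group, so no library represents untreated cells, and the control differed from NRF1 OE by the insert alone as far as the labels state.

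Complex I takes electrons from NADH and passes them through a flavin and a chain of iron-sulfur clusters to ubiquinone while it pumps protons across the inner mitochondrial membrane. It is L-shaped, with a matrix arm that holds the NADH and ubiquinone sites and a membrane arm that holds the proton channels. The conserved core is encoded in part by nuclear genes and in part by the mt-Nd genes of mitochondrial DNA, and accessory subunits surround it and are needed for its assembly and stability. NRF1 is a transcription factor that binds GC-rich elements in the promoters of many respiratory chain genes. The question put to these data was how the nuclear complex I genes differed between NRF1 OE and Ctrl within each sorted population, and between BV+ and BV- cells under the same vector.

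The promoters of 4 members, chosen after their values were seen, were read from the RefSeq promoter windows of GRCm38.p6. They are printed 5' to 3' on the strand of the gene, as the 250 bases before the start site, and do not stand for the other members. Ndufs5 at chr4:123718187-123718436 on the minus strand is shown because it separated BV+ from BV- cells. Ndufb4 at chr16:37654369-37654618 on the minus strand had the largest fold change of a called member in BV- cells. Ndufa11 at chr17:56717512-56717761 on the plus strand is 1 of the 8 members called in both populations. Ndufc2 at chr7:97399753-97400002 on the plus strand was called in both populations with and without the correction described further on. Ndufb4 and Ndufa11 were not called in either population with that correction. Capitals mark letters of the NRF1 core, which is GCGCA, then any base, then GCGC, or of its inner letters TGCGCA, searched on both strands.
Ndufs5: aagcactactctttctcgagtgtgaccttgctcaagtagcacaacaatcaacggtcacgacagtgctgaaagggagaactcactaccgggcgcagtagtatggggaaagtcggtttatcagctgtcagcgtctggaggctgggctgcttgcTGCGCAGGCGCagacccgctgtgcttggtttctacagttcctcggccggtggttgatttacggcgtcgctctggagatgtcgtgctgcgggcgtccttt
Ndufb4: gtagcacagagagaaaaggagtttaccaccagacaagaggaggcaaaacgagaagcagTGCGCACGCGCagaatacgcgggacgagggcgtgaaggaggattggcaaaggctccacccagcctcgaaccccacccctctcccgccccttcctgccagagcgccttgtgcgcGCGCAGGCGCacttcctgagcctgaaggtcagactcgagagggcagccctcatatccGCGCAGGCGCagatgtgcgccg
Ndufa11: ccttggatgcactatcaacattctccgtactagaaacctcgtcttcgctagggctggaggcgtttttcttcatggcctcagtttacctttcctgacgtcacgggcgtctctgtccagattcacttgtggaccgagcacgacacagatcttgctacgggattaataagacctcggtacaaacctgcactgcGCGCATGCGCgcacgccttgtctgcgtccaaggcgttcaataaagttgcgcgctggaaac
Ndufc2: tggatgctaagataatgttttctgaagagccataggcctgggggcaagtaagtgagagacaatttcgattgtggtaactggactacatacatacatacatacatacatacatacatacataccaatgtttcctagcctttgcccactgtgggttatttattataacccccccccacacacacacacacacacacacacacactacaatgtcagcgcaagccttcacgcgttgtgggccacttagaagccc
Ndufb4 held the core 3 times, and Ndufs5 and Ndufa11 held it once each, at positions -98 to -89 and -60 to -51 with the start base counted as 0, whereas the Ndufc2 window held neither string. Windows of 250 bases before to 50 after the start were found for 34 of the 39 members and not for Ndufa2, Ndufa4l2, Ndufb9 and Ndufs1, among others. The core string stood in 7 of the 34 (20.6%), namely Ndufa5, Ndufa6, Ndufa8, Ndufa11, Ndufb4, Ndufs5 and Ndufs6, against 5.19% of 27025 symbols with a window. The inner letters, which overlap the core in part of the windows, stood in 10 of 34 (29.4%) against 8.79% of all symbols. CCGGAAG, the core of ETS factor sites, stood in 4 of 34 (11.8%) against 9.93%. The median GC content of the members' windows was 59.0%, against 52.8% over all symbols, and no test was made of these shares. A match is a string of letters and was not measured here as a binding site. The study measured NRF1 binding in BV+ cells by ChIP-seq, and those data were not used here.

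Total gene counts were between 13702162 and 19625460 per library, with 22921 to 25896 genes detected, and 0.238% to 0.372% of the counts fell on the 39 genes. The targeted gene Nrf1 was counted at 95.7 and 99.4 CPM, which is counts scaled by depth and TMM factors, in BV+ NRF1 OE and at 91.1 and 90.4 in BV+ Ctrl. In BV- NRF1 OE it stood at 119, 122 and 126 CPM, and in BV- Ctrl at 99.1 and 105. Every NRF1 OE library was above every Ctrl library of its own population, yet the log2 fold changes of 0.10 (standard error, SE, 0.10, adjusted p = 0.489) and 0.26 (SE 0.10, adjusted p = 0.072) did not pass the test, so the gene-level counts carry only a small difference in the targeted transcript. Counts from the gene itself and from the cDNA of the vector were not separated. Throughout, adjusted p is from edgeR's quasi-likelihood test with Benjamini-Hochberg adjustment over the 16903 genes that passed the filter on low counts, and a gene is called at an adjusted p below 0.05. Prdm1, the gene of the Blimp1 reporter, lay between 42.4 and 62.8 CPM in the 9 libraries, with BV+ and BV- overlapping. The 11 germ cell markers summed to 473 to 481 CPM in BV+ Ctrl and 490 to 515 CPM in BV- Ctrl, and 0 of the 11 were called between them by edgeR and 1 by DESeq2 (3 at an unadjusted p below 0.05, and 7 of 11 below 0). Of all genes tested, edgeR called 1.1% higher and 0.0237% lower in that comparison, and DESeq2 called 1.79%. An unadjusted p below 0.05 was found in 7.77% of all genes, and 52% were below 0. Under NRF1 OE, 2 of the 11 were called higher and 3 lower in BV+, against 9.9% and 3.85% of all genes. In all BV+ libraries Itgb3 was above all BV- libraries, at 23.3 to 54.0 against 14.8 to 22.2 CPM. Fut4 was too, at a low level of 0.98 to 3.92 against 0.48 to 0.95 CPM. Prdm14 ran the other way without overlap, at 16.4 to 23.3 CPM in BV+ against 23.8 to 26.3 in BV-. Under each vector Dppa3, the gene of the Stella reporter, and Nanos3 were also lower in BV+ without overlap. Dppa3 was at 96.6 and 86.3 against 162, 144 and 124 CPM under NRF1 OE. In Ctrl it was at 60.3 and 56.7 against 79.1 and 81.1 CPM. Nanos3 was at 4.02 and 4.08 against 8.85, 8.91 and 7.34 CPM under NRF1 OE, and at 2.69 and 3.04 against 4.47 and 3.79 in Ctrl. The germ cell label of the BV+ libraries thus does not show in these markers as a whole list, and the populations are named here by the reporter. Pluripotency markers were high in both, summing to 2637 to 2776 CPM in BV+ Ctrl and 2897 to 2952 CPM in BV- Ctrl. In bulk RNA, a lower share of cells that use a gene and less of its RNA per cell cannot be told apart.

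Levels were compared between genes as deposited FPKM, which scales fragments by counted gene length and by depth. Ndufc2, a membrane arm subunit, had the highest mean over the 9 libraries, 133 FPKM with libraries from 99.5 to 179.6, followed by Ndufa4 at 126 FPKM. The libraries of the first and second overlapped, since Ndufa4 ranged from 101 to 153 FPKM. At the low end stood Ndufb4 at 6.12 FPKM and Ndufs5 at 4.07 FPKM, and Ndufa4l2 was near the limit of detection at 0.0822 FPKM. Ndufa4l2, whose product is known as hypoxia-inducible, had 3 and 5 counts in BV+ NRF1 OE, 1 and 6 in BV+ Ctrl, and 0 in all 5 BV- libraries, where a count of 0 allows up to 0.160 to 0.221 CPM. It was the only member that failed the filter on low counts, so 38 of 39 were tested. The order of levels depended on the length used. The length implied by FPKM was more than 1.5 times that of the GENCODE M21 transcript in 16 members, and 7.26 times in Ndufb7. The ranks by both lengths correlated at a Spearman rho of 0.773 over 38 genes, which share libraries and counts. Ndufb7, for instance, stood in position 32 by FPKM and in position 5 by counts per GENCODE kilobase.

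**Figure D1:**
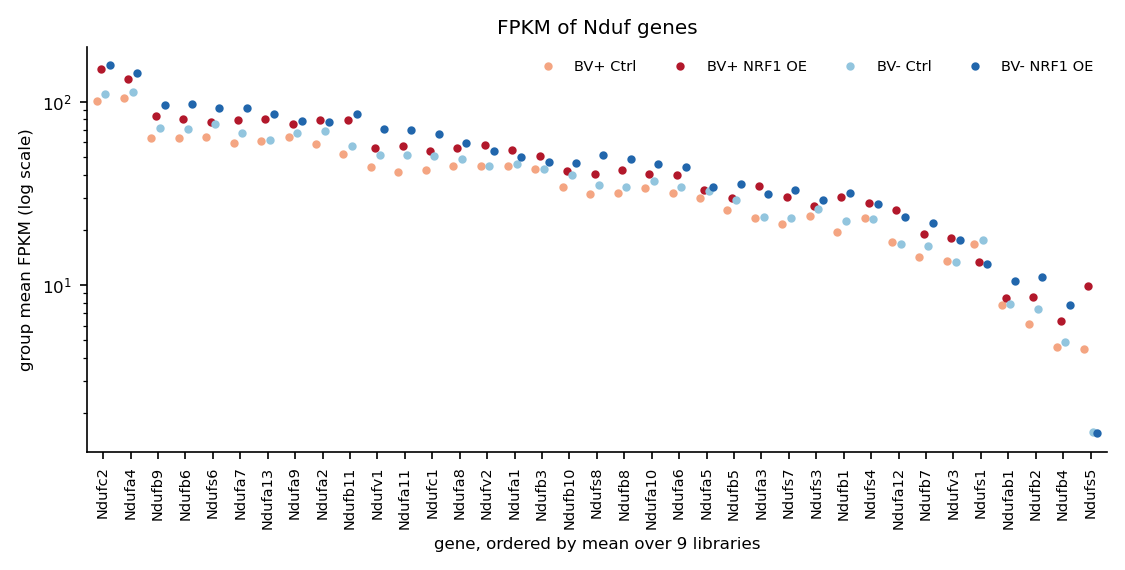
Group mean FPKM (vertical, log scale) of the 38 members that passed the filter, with 1 not shown, ordered by their mean over the 9 libraries, with 1 point per group and no error bars. NRF1 OE means lie above the Ctrl means of the same population for nearly all genes. Ndufs1 is the gene where both Ctrl means are higher, and Ndufs5 at the right end has BV+ means of 9.92 and 4.50 against BV- means of 1.55 and 1.59.

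In BV+ cells, 10 of the 38 members (26.3%) rose under NRF1 OE and 0 fell, where 6.24% of all genes tested rose and 1.78% fell. The median log2 fold change of the members was 0.42, a fold of 1.34, against 0.04 over all genes tested. At the threshold the study used, an unadjusted p below 0.05 with an absolute log2 fold change above 0.58, 6 members were higher and 0 lower, where that rule took 9.78% and 7.2% of all genes. In BV- cells, 21 of 38 (55.3%) rose and 0 fell, against 10.2% and 6.98% of all genes, with a median of 0.43 against 0.01. At the study's threshold 3 of the 38 were higher and 0 lower there, against 5.73% and 10.3% of all genes. DESeq2 called 15 higher and 0 lower in BV+ and 24 higher and 1 lower in BV-, where it called 12.5% and 23.8% of all genes in either direction. At an unadjusted p below 0.05 edgeR gave 32 and 30 members (32.5% and 39.1% of all genes). Of the 10 members called in BV+, 8 were among the 21 called in BV-, which is 80% of the first list and 38.1% of the second. These comparisons share no library, but they share the estimate of spread in 1 fit.

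The direction was common to nearly the whole family. In BV+ cells 37 of 38 members had a log2 fold change above 0, as did 52.8% of all genes, and in each of those 37 both NRF1 OE libraries were above both Ctrl libraries, as in 38.1% of all genes. In BV- cells 36 were above 0 (50.7% of all genes) and 32 had all NRF1 OE libraries above all Ctrl libraries (29.4% of all genes). Taking both populations together, the 5 NRF1 OE libraries were above the 4 Ctrl libraries without overlap in 27 members, against 14.5% of all genes. They were below them in 1 member, Ndufs1, against 15.1% (32% and 27.6% of all genes within BV+ and within BV-). Summed over the 39 genes, the level was 3265 and 2872 CPM in BV+ NRF1 OE, 2433 and 2319 CPM in BV+ Ctrl, 3275, 3754 and 3280.0 CPM in BV- NRF1 OE, and 2542 and 2729.6 CPM in BV- Ctrl. The libraries were not alike within groups: BV- NRF1 OE 2 was the highest of the 9 libraries for 27 of 38 members and BV+ Ctrl 2 the lowest for 28. The count of calls, unlike the size of the changes, rested on single libraries, for the members as for the whole table, where 8.02% of genes were called in BV+ and 17.2% in BV- with all libraries. In BV+ the members' count went to 0 without BV+ NRF1 OE 1, BV+ Ctrl 1 or BV+ Ctrl 2, where 0 genes in all were called, and to 0 without BV- Ctrl 1 (3.01% of all genes called). It went to 2 without BV- NRF1 OE 3 (3.94%), to 4 without BV- Ctrl 2 (5.04%), to 16 without BV+ NRF1 OE 2 (11.5%) and to 26, of which 1, Ndufs1, was lower, without BV- NRF1 OE 2 (29.4%). In BV- it went to 0 without BV- NRF1 OE 3 or any of the 4 Ctrl libraries, where 0 to 35 genes in all were called. A fit of the BV- libraries alone called 0 members and 0 genes in all, and a fit of the BV+ libraries alone called 22 members, with Ndufs1 again the 1 that was lower, and 26.8% of all genes. The members' medians stayed between 0.28 and 0.50 in BV+ and between 0.30 and 0.48 in BV- with any library left out.

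**Figure D2:**
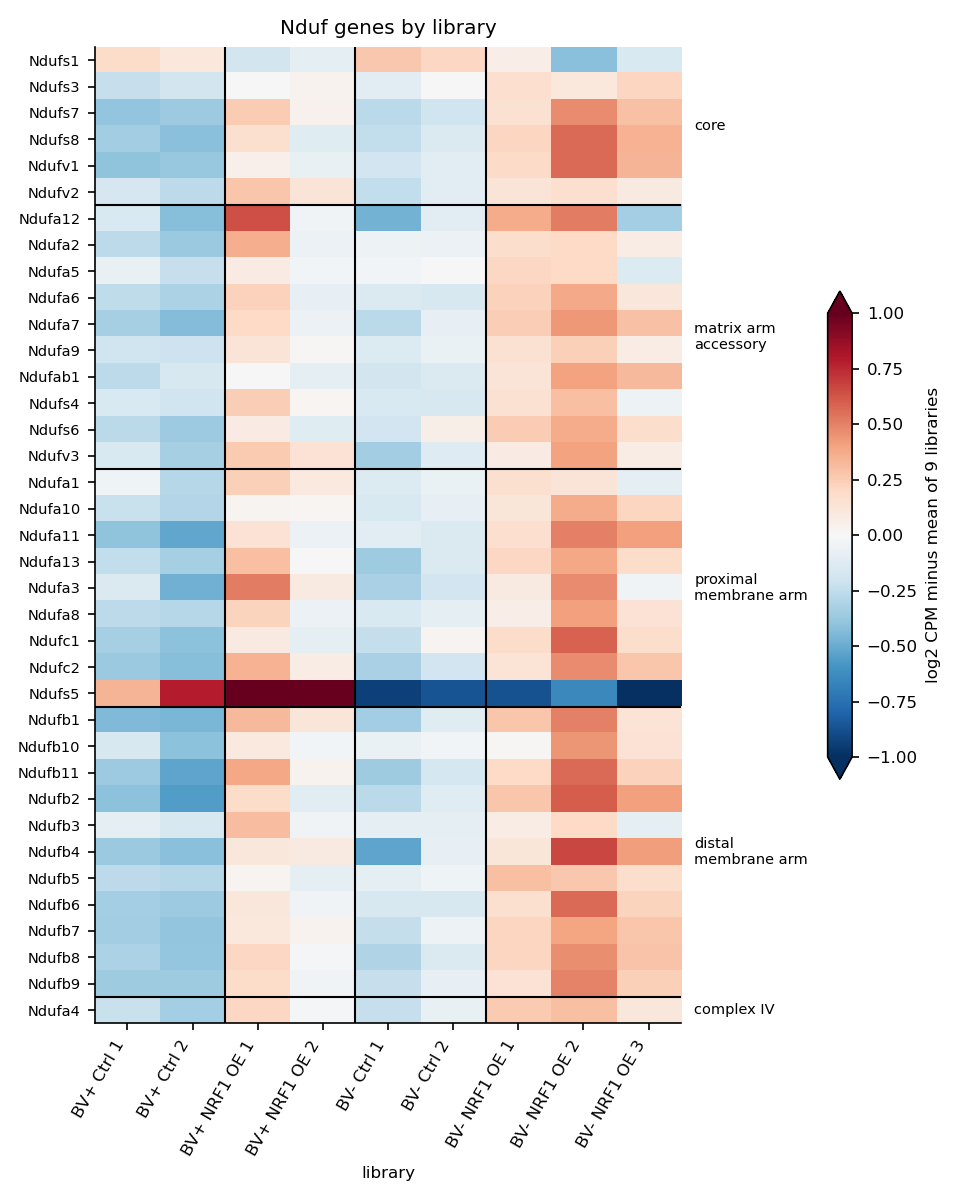
Log2 CPM of the members that passed the filter, with 1 not shown, minus its mean over the 9 libraries, by library (columns) and by place in the complex (rows); the colour scale ends at -1 and 1. Ctrl columns are mostly blue and NRF1 OE columns mostly red, BV- NRF1 OE 2 is the strongest red column, Ndufs1 runs the other way, and Ndufs5 separates BV+ from BV- columns.

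The nuclear core subunits form the catalytic part of the matrix arm. Of those described here, Ndufs7 and Ndufv2 rose in BV+ cells, and Ndufs7, Ndufs8 and Ndufv1 rose in BV- cells. For Ndufs7, which carries the last iron-sulfur cluster before ubiquinone, the BV+ values were 55.7 and 48.3 CPM under NRF1 OE and 35.5 and 36.4 CPM in Ctrl, and the BV- values 52.0, 65.0 and 57.2 CPM against 38.9 and 40.8 CPM. The groups did not overlap, and the log2 fold changes were 0.53 (SE 0.14, adjusted p = 0.041) and 0.54 (SE 0.13, adjusted p = 0.032).

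Ndufv1, the subunit that binds NADH and the flavin, stood at 154 and 141 CPM in BV+ NRF1 OE and 112 and 114 CPM in BV+ Ctrl, with a log2 fold change of 0.38 that did not pass the test (SE 0.13, adjusted p = 0.082). In BV- cells Ndufv1 rose by a fold of 1.43, from 129.8 and 138 CPM to 169, 219 and 187 CPM (log2 fold change 0.52, SE 0.12, adjusted p = 0.032). Its partner Ndufv2, which holds an iron-sulfur cluster, rose in BV+ cells from 96.5 and 90.6 CPM to 132 and 119 CPM (log2 fold change 0.42, SE 0.11, adjusted p = 0.044). The BV- values of Ndufv2 were 118, 122 and 115 CPM against 91.3 and 100.0 CPM, higher in each NRF1 OE library but with an adjusted p of 0.055. Ndufs8, another iron-sulfur subunit, was at 57.6 and 47.2 CPM against 40.3 and 38.4 CPM in BV+ (adjusted p = 0.090) and rose in BV- from 43.3 and 46.4 CPM to 59.7, 76.0 and 65.6 CPM, with a log2 fold change of 0.58 (SE 0.14, adjusted p = 0.032). Ndufs3, at 58.2 and 59.5 against 49.6 and 51.1 CPM in BV+ and 65.1, 62.6 and 67.4 against 53.6 and 58.3 CPM in BV-, did not pass in either population (adjusted p = 0.187 and 0.141). Its log2 fold changes of 0.22 in each became -0.06 and -0.10 under the correction for GC content and length given further on. Of its 75-base stretches, 28.2% are shared with other annotated transcripts, Gm12251 and the overlapping Kbtbd4.

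Ndufs1, the largest nuclear subunit and the holder of several iron-sulfur clusters, was the exception among the core genes before the correction for GC content and length. It was at 105 and 112 CPM in BV+ NRF1 OE against 136 and 128 in BV+ Ctrl, and at 125, 89.1 and 107.3 CPM in BV- NRF1 OE against 144 and 138 in BV- Ctrl. Every NRF1 OE library was below every Ctrl library. The log2 fold changes were -0.28 (SE 0.14, adjusted p = 0.198) and -0.39 (SE 0.13, adjusted p = 0.055), neither past the threshold with edgeR, while DESeq2 gave an adjusted p of 0.029 in BV-. With that correction they were -0.13 in BV+ and -0.19 in BV-, and Ndufs3 was then also below 0 in both populations. Ndufs1 has the longest counted length of the members, 8087 bases as implied by FPKM against 2661 bases in GENCODE M21, and its transcript has a GC content of 45.1%, below the members' median given further on.

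Accessory subunits of the matrix arm gave 1 call of 10 in BV+ and 3 of 10 in BV-, with median log2 fold changes of 0.34 and 0.36, and all 10 were above 0 in both populations. The call in BV+ was Ndufa7, at a log2 fold change of 0.46 and an adjusted p of 0.0496, just inside the threshold. Of all genes tested, 6.24% were called higher in BV+ and 10.2% in BV-. With the correction for GC content and length given further on, 0 and 2 of the 10 were called. Ndufab1, the mitochondrial acyl carrier protein, which also serves lipoic acid synthesis, was at 60.6 and 56.6 CPM in BV+ NRF1 OE and 50.6 and 54.2 CPM in BV+ Ctrl (log2 fold change 0.16, SE 0.12, adjusted p = 0.373). In BV- cells it rose by a fold of 1.37, from 53.4 and 55.0 CPM to 66.5, 80.1 and 76.2 CPM (adjusted p = 0.035), and the difference of the effects between populations was -0.29 on the log2 scale (SE 0.17; unadjusted p = 0.111, adjusted p = 0.981). The NRF1 OE libraries lay above the Ctrl libraries in both populations, by a narrow margin in BV+.

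Accessory subunits of the proximal membrane arm gave 3 calls of 9 in BV+ (Ndufs5, Ndufc2 and Ndufa11) and 4 of 9 in BV- (Ndufa10, Ndufa11, Ndufa13 and Ndufc2). The shares of all genes called higher were 6.24% and 10.2%. With the correction for GC content and length, 2 and 1 of the 9 were called. Ndufc2, a small membrane-spanning subunit, was at 125 and 104 CPM in BV+ NRF1 OE against 76.2 and 73.2 CPM in BV+ Ctrl. In BV- cells the values were 108, 137 and 119 CPM against 78.5 and 86.0 CPM. The groups stood apart in both populations, with log2 fold changes of 0.62 (SE 0.14, adjusted p = 0.031) and 0.56 (SE 0.13, adjusted p = 0.032). Ndufa11, a transmembrane subunit that helps hold the membrane arm together, was at 66.9 and 58.2 CPM against 45.8 and 42.2 CPM in BV+ and at 67.8, 85.8 and 80.5 CPM against 56.3 and 54.6 CPM in BV-. Its log2 fold changes of 0.51 (SE 0.14, adjusted p = 0.048) and 0.49 (SE 0.13, adjusted p = 0.035) were close to each other.

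The distal membrane arm, whose accessory subunits are the Ndufb proteins, had 3 of 11 called in BV+ (Ndufb1, Ndufb7 and Ndufb11) and 9 of 11 in BV-, all except Ndufb3 and Ndufb10, with medians of 0.44 and 0.49 on the log2 scale. The shares of all genes called higher were 6.24% and 10.2%. With the correction for GC content and length, 3 of the 11 were called in BV+ and 3 in BV-. Ndufb1 rose in BV+ from 22.1 and 21.8 CPM to 37.5 and 32.5 CPM, a fold of 1.59 (log2 fold change 0.67, SE 0.16, adjusted p = 0.033), and in BV- it was at 36.2, 42.5 and 32.9 CPM against 23.6 and 27.6 CPM (log2 fold change 0.54, adjusted p = 0.036). Ndufb11, which is X-linked, was at 81.6 and 63.8 CPM against 48.4 and 43.2 CPM in BV+ and at 71.5, 92.5 and 73.2 CPM against 48.6 and 55.3 CPM in BV-. The log2 fold changes were 0.67 (SE 0.16, adjusted p = 0.038) and 0.60 (SE 0.15, adjusted p = 0.034), and every NRF1 OE library was above every Ctrl library.

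In BV- cells the largest fold of a called member was that of Ndufb4, at 12.3, 18.1 and 15.2 CPM against 7.88 and 10.7 CPM (fold 1.63, SE 0.19 on the log2 scale, adjusted p = 0.037). Ndufb4 is among the least counted members, with 125 to 257 counts, and 35.2% of its 75-base stretches are shared with Ndufb4c and Gm16056, so its level is uncertain. Ndufb2 rose in BV- from 39.1 and 43.4 CPM to 57.0, 71.7 and 62.5 CPM (log2 fold change 0.63, SE 0.14, adjusted p = 0.032), and its BV+ values of 53.6 and 43.6 against 35.5 and 32.0 CPM gave 0.53 with an adjusted p of 0.055. Ndufb8 behaved in a like way, at 144, 172 and 152 CPM against 101 and 113 CPM in BV- (log2 fold change 0.54, SE 0.12, adjusted p = 0.032) and at 144 and 123 against 100.0 and 95.1 CPM in BV+ (adjusted p = 0.052).

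Ndufa4, a subunit of cytochrome c oxidase despite its name, had the direction of most complex I genes. It was at 199 and 170.4 CPM in BV+ NRF1 OE against 148 and 136 CPM in BV+ Ctrl (log2 fold change 0.38, SE 0.12, adjusted p = 0.071), and it rose in BV- from 147 and 164 CPM to 206, 213 and 186 CPM (log2 fold change 0.38, SE 0.11, adjusted p = 0.044). The groups did not overlap in either population.

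The members are short transcripts, and the relation of counts to transcript length and GC content was not the same in all libraries. Their median GENCODE length is 934 bases and their median GC content 51.7%, against 3092 bases and 50.1% for the 12025 genes with a mean count of at least 50. Over those genes, Spearman's rho between a gene's deviation from its mean and its GC content was -0.638 to -0.552 in the 4 Ctrl libraries and -0.0190 to 0.725 in the 5 NRF1 OE libraries, so the groups did not overlap in this trend. For length, rho was 0.186 to 0.456 in Ctrl and -0.446 to 0.170 in NRF1 OE, again without overlap. With each library's loess trend over GC content and length entered as an offset, 7 members rose and 0 fell in BV+ (6.79% and 6.06% of all genes), with a median of 0.18 against -0.03 over all genes. In BV- 8 rose and 0 fell (3.08% and 2.05% of all genes), with a median of 0.15 against -0.02. The number of members above 0 went from 37 to 35 in BV+ (47% of all genes) and from 36 to 30 in BV- (47.5%). Since the trends follow the groups, their part in the difference between NRF1 OE and Ctrl cannot be told apart.

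The offsets changed which members were called. In BV+, 4 of the 10 called members remained, Ndufb11, Ndufc2, Ndufs5 and Ndufv2, and Ndufa4, Ndufb2 and Ndufb8 were added. In BV-, 6 of the 21 remained, Ndufa4, Ndufab1, Ndufb2, Ndufb5, Ndufb8 and Ndufc2, and Ndufs4 and Ndufv2 were added. Ndufc2 was the only member called in both populations with and without offsets, at log2 fold changes of 0.45 (SE 0.10, adjusted p = 0.018) in BV+ and 0.40 (SE 0.09, adjusted p = 0.037) in BV- with them. The members' change with offsets went with their GC content, whose trend the offsets subtract together with that of length. The 19 members with the lowest GC content, 42.0% to 51.5%, had medians of 0.37 and 0.33 without offsets and 0.35 and 0.27 with them in BV+ and BV-. The 19 with the highest, 51.7% to 60.4%, went from 0.44 and 0.45 to 0.11 and 0.06. Ndufs7, at 59.6% GC, went from 0.53 and 0.54 to 0.11 and 0.06, with adjusted p-values of 0.377 and 0.653. Ndufb2, at 43.7% GC, went from 0.53 and 0.63 to 0.80 (SE 0.22, adjusted p = 0.031) and 1.05 (SE 0.20, adjusted p = 0.029). With offsets, the members' fold changes ran against their GC content, at a Spearman rho of -0.603 in BV+ and -0.551 in BV- over 38 genes where it had been 0.319 and 0.334, and rho with their length went from -0.250 to 0.116 in BV+ and from 0.153 to 0.376 in BV-. This is a description, since the genes share libraries.

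**Figure D3:**
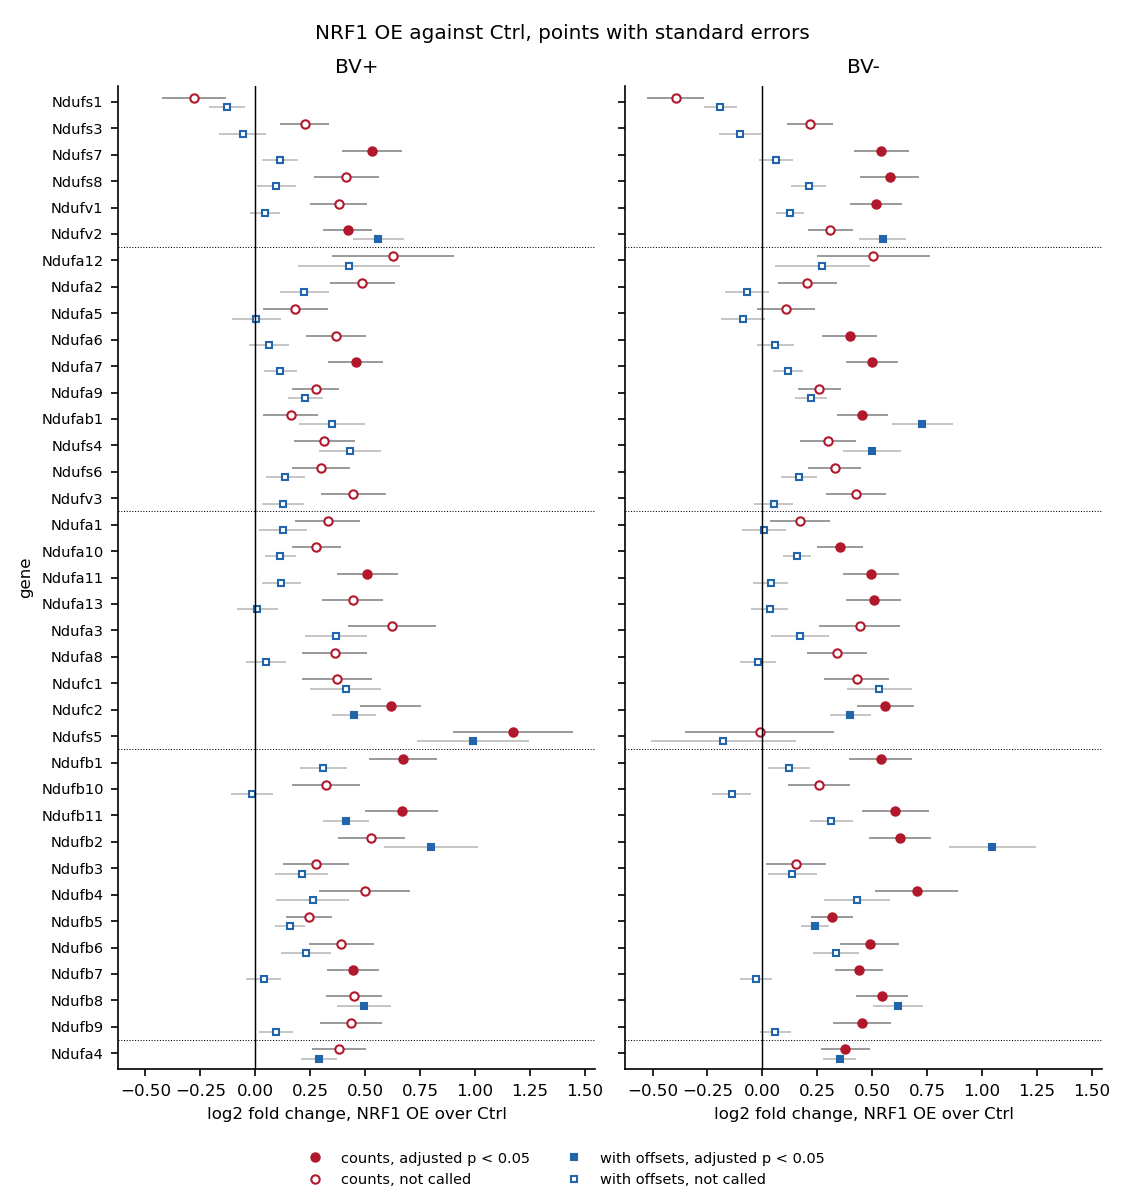
Log2 fold changes of NRF1 OE over Ctrl with standard errors for the members that passed the filter, with 1 not shown, in BV+ (left) and BV- (right). Red circles are from the counts and blue squares from the fit with GC and length offsets, filled where the adjusted p was below 0.05. Nearly all red circles lie right of 0, and the blue squares spread out, with medians of 0.18 and 0.15 against 0.42 and 0.43.

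**Figure D4:**
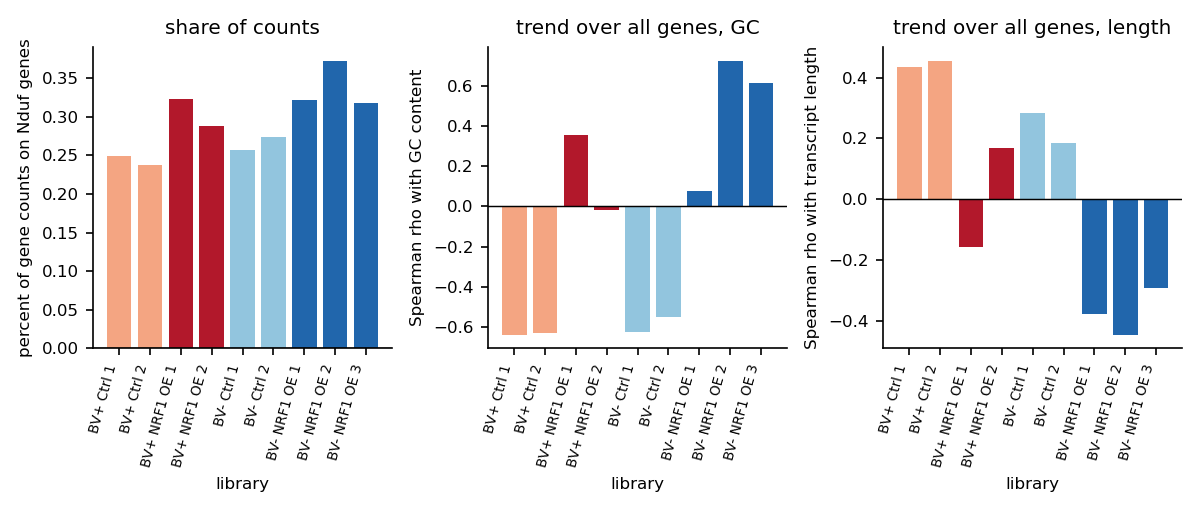
Share of gene counts on the 39 members in percent (left), and Spearman's rho of each library's deviations with GC content (middle) and with transcript length (right) over 12025 genes, with 1 bar per library coloured by group. The 5 NRF1 OE libraries have shares of 0.288% to 0.372% and the 4 Ctrl libraries 0.238% to 0.274%. The correlation with GC content is at or below -0.552 in each Ctrl library.

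Members with and without the NRF1 core in the promoter window had fold changes close to each other. The 7 tested members with the NRF1 core had median log2 fold changes of 0.37 in BV+ and 0.34 in BV-, with 2 and 3 called, and the 27 without it had medians of 0.41 and 0.44, with 7 and 16 called.

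Between BV+ and BV- cells the family as a whole was close in level. In Ctrl, 37 of 38 members had a log2 fold change below 0, as did 52% of all genes, and the median was -0.14, a fold of 0.907, against -0.01 over all genes. No member was called by edgeR (0, against 1.1% of all genes called higher and 0.0237% lower). There were 2 members at an unadjusted p below 0.05, Ndufs5 and Ndufa11, against 7.77% of all genes, and DESeq2 called 1, Ndufs5 (1.79% of all genes). All BV+ Ctrl libraries were below all BV- Ctrl libraries in 26 members, against 25.4% of all genes. Under NRF1 OE 29 of 38 were below 0 (50.6% of all genes) with a median of -0.14, and 9 had an unadjusted p below 0.05 (28.2% of all genes). The only one called was Ndufs5, which was higher in BV+, where 9.9% of all genes were called higher and 3.85% lower. DESeq2 also called Ndufv1, lower in BV+ (log2 fold change -0.38, adjusted p = 0.049 by DESeq2 and 0.057 by edgeR), and 13.7% of all genes. With offsets Ndufs5 was called higher under NRF1 OE (12% of all genes) and in Ctrl (1.73% of all genes, 0.138% lower). Under NRF1 OE 4 members were then called lower in BV+, Ndufab1, Ndufb2, Ndufb5 and Ndufv1, with log2 fold changes of -0.61 to -0.22, as were 13.3% of all genes. The members' median with offsets was -0.07 in Ctrl, against -0.03 over all genes. Under NRF1 OE it was -0.03, against -0.06 over all genes.

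Ndufs5 was the member that set the populations apart. Its product is an accessory subunit on the intermembrane face of the proximal membrane arm, held by disulfide bonds. It was counted at 10.5 and 6.64 CPM (204 and 122 counts) in BV+ NRF1 OE and at 3.21 and 4.35 CPM (49 and 83 counts) in BV+ Ctrl. In BV- cells it stood at 1.38, 1.62 and 1.07 CPM (18 to 23 counts) under NRF1 OE and at 1.32 and 1.39 CPM (21 and 26 counts) in Ctrl. The 4 BV+ libraries were above the 5 BV- libraries, and within BV+ the NRF1 OE libraries were above the Ctrl libraries, whereas within BV- the groups overlapped. Between BV+ and BV- under NRF1 OE the fold was 6.35 (log2 fold change 2.67, SE 0.27, adjusted p = 7.1e-05), and with any library left out the adjusted p stayed at or below 0.00135. In Ctrl the fold was 2.79 (log2 fold change 1.48, SE 0.33) with an adjusted p of 0.061 by edgeR, 0.016 by DESeq2 and 0.019 with offsets. NRF1 OE over Ctrl was 2.25-fold in BV+ (log2 fold change 1.17, SE 0.27, adjusted p = 0.033, and up to 0.324 with a library left out) and 0.991-fold in BV- (SE 0.34 on the log2 scale, adjusted p = 0.981). The difference of these effects, 1.19 on the log2 scale (SE 0.44), had an unadjusted p of 0.0197 and an adjusted p of 0.741, and so was not called.

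Part of the Ndufs5 sequence is repeated elsewhere: 24.1% of its 75-base stretches are shared with the row Ndufs5-ps, the pseudogene that GENCODE M21 lists as BC002163 under the same Ensembl identifier, which held more counts than Ndufs5 in every library. Ndufs5-ps was at 22.2 and 20.5 CPM in BV+ NRF1 OE, 22.9 and 22.1 CPM in BV+ Ctrl, 32.4, 30.1 and 31.9 CPM in BV- NRF1 OE, and 25.1 and 26.4 CPM in BV- Ctrl. It ran opposite to Ndufs5 between the populations, lower in BV+ under NRF1 OE by 0.56 on the log2 scale (-0.56, SE 0.12, adjusted p = 0.0078). Between NRF1 OE and Ctrl in BV+ it was close to level at -0.08 (SE 0.13), or lower at -0.39 with offsets (adjusted p = 0.045). Ndufs5 took 24.5% to 32.1% of the counts of both rows in BV+ NRF1 OE, 12.3% to 16.4% in BV+ Ctrl and 3.23% to 5.10% in the BV- libraries, while their sum lay between 26.1 and 33.8 CPM in all 9 libraries with BV+ and BV- libraries overlapping. How far reads were split between the rows by the counting was not tested.

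Among the markers of other cell types Nes and Kdr, chosen after their values were seen, had an order of groups like that of Ndufs5. Of their lists, Sox1 and Hand1 had much the same order of groups, and Pax6, Tubb3, Pdgfra, Gata4 and Mixl1 did not. Nes, an intermediate filament gene used as a neural marker, was at 105 and 59.3 CPM in BV+ NRF1 OE, 26.4 and 27.8 in BV+ Ctrl, 10.6, 11.3 and 9.83 in BV- NRF1 OE and 4.85 and 9.13 in BV- Ctrl. Kdr, a receptor of vascular mesoderm, was at 25.4 and 17.1, 6.55 and 8.55, 1.75, 1.62 and 1.42, and 1.89 and 2.56 CPM in the same order of groups. Both share with Ndufs5 the order in which BV+ NRF1 OE is highest and BV+ Ctrl next. How many of all genes have this order was not counted. Under NRF1 OE, 9.9% of all genes tested were called higher in BV+ than in BV-. Pdgfra, another mesoderm receptor, ran the other way under NRF1 OE, at 3.71 and 2.94 CPM in BV+ NRF1 OE against 6.82 and 8.13 in BV+ Ctrl (log2 fold change -1.17, SE 0.22, adjusted p = 0.017). The neural markers Pax6 and Tubb3 were not called in BV+ (log2 fold changes of -0.20 and 0.15), and Pax6 was highest in the BV+ Ctrl libraries, at up to 14.2 CPM. As whole lists, the 6 neuroectoderm markers summed to 182 to 224, 125 to 129.5, 99.5 to 135 and 101 to 104 CPM, and the 8 mesoderm markers to 29.4 to 42.2, 23.2 to 26.1, 11.4 to 15.0 and 19.4 to 19.9 CPM, in that order, with the mesoderm marker Mesp1 at or below 0.12 CPM in every library. The 7 endoderm markers summed to 6.80 to 10.0, 11.1 to 14.0, 10.2 to 19.96 and 16.7 to 19.7 CPM, lowest in BV+ NRF1 OE. In the neuroectoderm list 1 marker was at 0 in each of the other 3 groups. Their part in the Ndufs5 result was not tested.

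**Figure D5:**
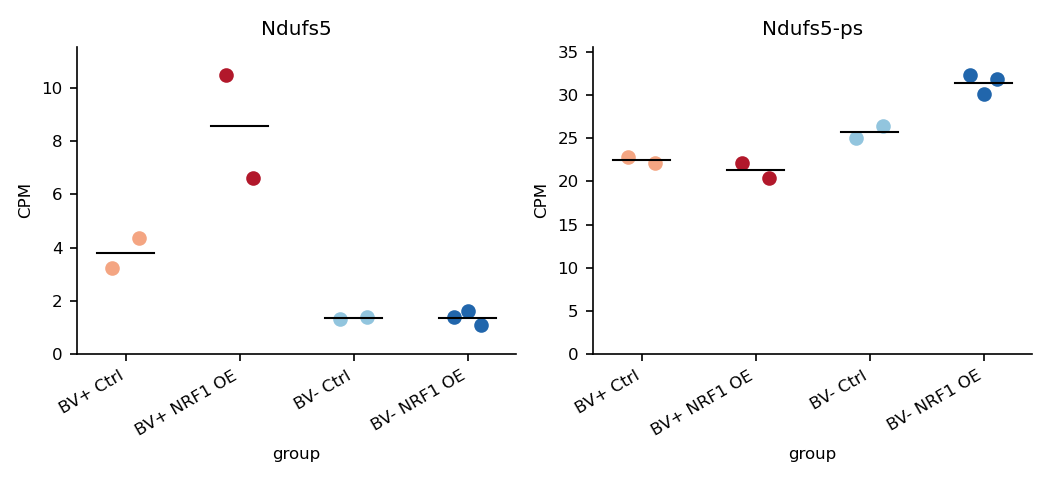
CPM of Ndufs5 (left) and of the row Ndufs5-ps that shares part of its sequence (right) in each library, by group, with a line at each group mean. Both axes start at 0. Ndufs5 is at 3.21 to 10.5 CPM in BV+ libraries and at 1.07 to 1.62 CPM in BV- libraries, and Ndufs5-ps is at 20.5 to 22.9 CPM in BV+ and 25.1 to 32.4 CPM in BV- libraries.

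When the effect of NRF1 OE in BV+ was set against that in BV-, edgeR and DESeq2 each called 0 of 38 members, where edgeR called 0% and DESeq2 0.136% of all genes. Among the members, Ndufs5 alone had an unadjusted p below 0.05, as had 5.51% of all genes. The next smallest unadjusted p-values were those of Ndufab1 (0.111), given above, and Ndufa2 (0.184), with a difference of 0.28 on the log2 scale (SE 0.20). A difference in effect between the populations was thus not shown for any member, although more members were called in BV- than in BV+.

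Without offsets, the other genes of complex I did not follow the subunits closely. Of 17 assembly factors, which build the complex and are not part of it, 0 were called in BV+ by edgeR and 1 by DESeq2 (4 at an unadjusted p below 0.05; median log2 fold change 0.11) and 1 in BV- (3 at an unadjusted p below 0.05; median 0.18). Of all genes tested, edgeR called 8.02% in BV+ and 17.2% in BV-, and DESeq2 12.5% and 23.8%. With offsets the medians of the assembly factors were 0.03 in BV+ and 0.10 in BV-. The edgeR call in BV- without offsets was Ndufaf3, a factor of early assembly. It was at 18.5, 22.7 and 17.9 CPM in BV- NRF1 OE against 11.4 and 13.2 CPM in BV- Ctrl (log2 fold change 0.67, SE 0.15, adjusted p = 0.032). With offsets, Nubpl, which delivers iron-sulfur clusters to the complex, was called in both populations in its place, at log2 fold changes of 0.55 and 0.58 (adjusted p = 0.028 and 0.034), against 0.31 and 0.24 without offsets. The 7 mt-Nd genes, which encode the core of the membrane arm, had medians of 0.09 in BV+ and -0.27 in BV-, with 0 called in either by edgeR or DESeq2 (1 at an unadjusted p below 0.05 in each), and with offsets the medians were 0.18 and 0.01. Under NRF1 OE, mt-Nd1 and mt-Nd2 were higher in BV+ than in BV- by folds of 1.39 and 1.33 (adjusted p = 0.034 and 0.0385), the opposite sign to the median of the nuclear subunits. Poly(A) selection was used, so levels of mitochondrial transcripts depend on their tails. The 41 genes of complexes II to V, of which 40 were tested, gave 6 higher calls in BV+ and 18 in BV-, with medians of 0.37 and 0.39, or 0.18 and 0.16 with offsets, near those of the nuclear complex I genes.

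Shared sequence and overlap limit several members. In GENCODE M21, exons of 16 of the 39 genes overlap exons of another gene, mostly on the opposite strand, and whether the counting used strand is not given in the sources used here. Over 10% of the 75-base stretches were shared with another transcript in 9 members, of which Ndufa12 (22.0% shared with Gm15920, the deposited row Ndufa12-ps), Ndufa13 (25.6% with Tssk6), Ndufb5 (14.1% with Mrpl47), Ndufb6 (31.3% with Smim27), Ndufb9 (20.3% with Gm49356) and Ndufab1 (10.9%, with Ndufab1-ps among others) have not been named above for it. Ndufa12-ps held more counts than Ndufa12 in most libraries. The counts were 939 against 426 in BV- NRF1 OE 3, but 670 against 968 in BV+ NRF1 OE 1. The 39 genes lie on 16 chromosomes, with 2 on the X chromosome, Ndufa1 and Ndufb11.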

How the data were processed

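The deposited tables held, for each of the 9 libraries, raw counts per gene and FPKM. Per the labels and the study's methods, the authors isolated poly(A) RNA, removed adaptors and short or low-quality reads, aligned read pairs to GRCm39 with HISAT2 2.0.1, obtained counts with HTSeq 0.6.1 and derived the FPKM values from them. The methods describe the libraries as biological replicates. Here, edgeR 4.0.16 in R 4.3.3 was run on the deposited counts of 16903 of 33142 genes with a count (filterByExpr, TMM factors 0.969 to 1.03), in 1 fit across 4 group means. Tests were two-sided, and standard errors were derived from the F statistic. CPM used the TMM-scaled library sizes. The common biological coefficient of variation was 0.129. Total counts set the precision, and counting limits cover counting error only. Alternatives were DESeq2 1.42.0, other scalings, no filter, only the groups compared, a replicate block, each library left out, and offsets from each library's loess trend over GC content and log2 length, fitted on genes with a mean count of at least 50. An additive smooth (mgcv 1.9-3) was added as another form of these offsets after seeing the data. Lengths, GC content, overlaps and shared 75-base stretches came from GENCODE M21 (GRCm38) by Ensembl identifier. As this build differs from that of the counts, no position was used with them. Motifs were searched on both strands. Named genes were Nrf1, the core subunits, Ndufa4, Ndufa4l2 and Ndufab1, in each comparison up to 6 called members per direction by fold change, the highest and lowest members by FPKM, the 3 smallest p-values of the difference of effects, and called genes of the assembly factor and mt-Nd lists; other names were chosen after their values were seen. Members and lists were chosen with earlier results of these data known. The fits were run on simulated counts of independent libraries with a coefficient of variation below 0.129. Such data do not bear on how the libraries here differed within groups. Values of 1 member, which the counts and medians include, are not reported here.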

Additional observations from a re-analysis of the deposited data

How the results depend on the processing

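Counts below are members called at an adjusted p below 0.05 by edgeR unless named otherwise. For NRF1 OE over Ctrl in BV+ (10), library sizes alone gave 4, upper-quartile factors 4 and the BV+ libraries alone 22 (5.94%, 7.62% and 26.8% of all genes), and in BV- (21) the BV- libraries alone gave 0, as over all genes. With GC and length offsets the medians of 0.42 and 0.43 went to 0.18 and 0.15 and the BV- count to 8, and Ndufs3 changed sign to -0.058 in BV+ and -0.10 in BV-. With an additive smooth in place of loess, chosen after seeing the data, the counts were 8 and 8, the medians 0.21 and 0.13, Ndufs3 stood at -0.10 and -0.15 and Ndufs7 in BV- at -0.00038. Leaving out single libraries gave 0 to 26 calls in BV+, with medians of 0.28 to 0.50, and 0 to 26 in BV-, with medians of 0.30 to 0.48. Where this left a group with 1 library, it was assumed to vary like the other groups. For BV+ against BV- in Ctrl (0), DESeq2, library sizes alone, upper-quartile factors, no filter on low counts and both forms of offsets gave 1 each, only the groups compared gave 2, and leaving out single libraries gave 0 to 1. Under NRF1 OE (1), DESeq2 and no filter gave 2 each, offsets 5, their additive form 6, and leaving out single libraries 1 to 6, with 6 without BV- NRF1 OE 1. The cause of these changes was not tested. Depth limits Ndufs5, with 18 to 26 counts in BV- libraries, and Ndufa4l2.

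A replicate block took the calls of NRF1 OE over Ctrl to 0 in both populations, where it left 3 and 0 called among all genes, with 24 and 30 members at an unadjusted p below 0.05. Only BV- NRF1 OE has a library numbered 3, so the block takes up that library and it adds nothing to the comparison. Leaving that library out without a block also gave 0 in BV-. With offsets and the block together there were 2 in BV+ (median 0.18) and 0 in BV- (median 0.18), 2 for BV+ against BV- under NRF1 OE, and Ndufs3 stood at -0.058 and -0.14. Whether the replicate numbers pair the libraries could not be told. Deviations from the group mean correlated at -0.54 to 0.47 over 12 pairs of same-numbered libraries and at -0.47 to 0.54 over 18 other pairs. In a group of 2 libraries the deviations mirror each other, so the 2 ranges are not independent. Among the fold changes of single named genes over all alternatives, 396 values kept their direction and side of the threshold, 153 lost and 32 gained a call, and 7 changed sign.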
